A study of Mus musculus with 8 samples.

Results

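The genes described here are 43 genes of DNA replication, out of 24303 genes in a table of normalized RNA-Seq counts. They were picked by symbol, as genes known to act in origin licensing, the replicative helicase, the polymerases, the clamp, the joining of new strands, the supply of deoxynucleotides or the packing of new DNA. All 43 have a row in the table. The study modelled CD8 T cell dysfunction in culture, and RNA was sequenced from sorted CD8 T cells of the spleen of P14 mice, which are C57BL/6 mice whose T cells carry a receptor transgene that recognizes GP33 of LCMV. Every condition began with 2 days on plates coated with anti-CD3 and anti-CD28. Effector cells were taken on day 7 of the same culture model, and the study's flow cytometry names effector cells of that day 7d-stim. Whether these libraries had GP33 up to sampling is not said outright. Acute-2d cells got no GP33 after plate activation and were kept free of peptide to day 19. Acute-7d cells were given GP33 again and again up to day 7 and then rested without it to day 19. T_Dysf cells were given GP33 up to day 19 and TGF-β1 from day 7 on. Each of the 4 conditions has 2 libraries, described by the labels as biological replicates, and the labels do not say how many mice gave the cells, or their age or sex. The methods of the study name donors of either sex and give a minimum age, without saying which library came from which donor. All were cultured cells that carry 1 receptor specificity. Throughout, a pair of values for a condition is replicate 1 followed by replicate 2.

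Cells copy their genome once per division. The origin recognition complex, CDC6 and CDT1 first place the MCM2-7 helicase on DNA, and CDC45 and the GINS complex later join it to form the active helicase. Primase and polymerase alpha start each new strand, polymerases epsilon and delta extend it on the PCNA clamp, and flap endonuclease and DNA ligase join the short pieces of the lagging strand. The transcripts of many of these proteins are low in resting lymphocytes and high in dividing ones, with E2F factors as well-known regulators. A CD8 T cell that meets antigen divides rapidly in the effector phase and then returns to rest.

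Depth on genes ran from 19382147 to 24856195 reads, where the commonest of the small values in each library was taken as 1 read. A value of 3 reads corresponded to between 2.59 and 3.35 normalized counts. No replication gene was near that floor, since the lowest value of any was 19.4 normalized counts, for Orc1 in Acute-2d replicate 2. The floor covers counting error only. Differences between conditions were tested with limma on log2(normalized count + 1) over all 24303 genes and all 8 libraries, and a gene was called when its fold change was at least 2 and its Benjamini-Hochberg adjusted p was under 0.05. Fold changes below are on that log2 scale, which slightly understates the change of low genes. With 2 libraries a condition, an exact permutation test between conditions can give no p below 0.333, and limma's p-values rest on the spread pooled over all conditions. In bulk RNA, fewer dividing cells and less replication RNA per cell cannot be told apart.

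Library checks came first, because the libraries of Effector and Acute-7d vary. The labels of Effector 1, Effector 2 and Acute-7d 1 carry the prefix RESUB, whose meaning they do not give, and the other 5 labels do not carry it. Xist, the RNA of the inactive X chromosome, stood at 115 and 53.5 normalized counts in Effector and at 54.5 in Acute-7d 1, against 30427 in Acute-7d 2, 26861 and 22106 in Acute-2d and 21871 and 22311 in T_Dysf. The Y-linked gene Ddx3y had 1334 and 1491 normalized counts in Effector and 2161 in Acute-7d 1, and was listed at 0 or at 2.59 in the other 5 libraries. The same 3 libraries were thus apart in prefix and in sex-linked genes, with the pattern of male cells, while the other 5 had that of female cells. For Effector against Acute-2d and against T_Dysf, prefix, sex-linked pattern and condition cannot be told apart, and the Acute-7d pair is split. A term for the prefix, used below, therefore also separates the libraries by sex-linked pattern. Itgae, a target of TGF-β, stood at 40456 and 37825 normalized counts in T_Dysf and between 50.2 and 101 in the other 6 libraries, and Tcf7, a factor of memory and progenitor cells, at 161 and 122 in T_Dysf and at 2178 or more elsewhere. As for cell identity, Cd8a had 22007 and 18853 normalized counts in Acute-2d, 16334 and 18039 in Acute-7d, 35908 and 36163 in T_Dysf and 11170 and 19543 in Effector. All 5 genes of the CD8 T cell list were higher in T_Dysf than in either Acute condition without overlap. Of all genes, 26.0% were so against Acute-7d and 25.7% against Acute-2d. The median log2 fold changes of the 5 were 0.85 against Acute-7d and 0.61 against Acute-2d, and Cd3e was called in both. Cd3e and Cd8a were also called higher in T_Dysf than in Effector. Among 3 genes of CD4 T cells, Cd4 reached at most 13.0 in any library and none was called by limma in T_Dysf against Acute-7d, where 1 had an unadjusted p under 0.05. Cd40lg was called lower in T_Dysf than in Effector, at -3.75 with an adjusted p of 0.00979, and higher in Effector than in Acute-2d, while Foxp3 was called lower in Effector than in Acute-7d, at -3.29. Both were low, with at most 13.0 normalized counts for Cd40lg and 49.5 for Foxp3. Of 5 myeloid genes, with a median log2 fold change of 0.01 in T_Dysf against Acute-7d, none was called by limma in that comparison and none had an unadjusted p under 0.05, and Csf1r was called higher in T_Dysf than in Effector, at 1.43 with an adjusted p of 0.0406. In Effector against Acute-2d all 5 were negative, with a median of -0.77, and Csf1r was called lower, at -1.43 with an adjusted p of 0.0410. The 3 NK genes stood apart in Acute-7d. All were lower without overlap in T_Dysf than in Acute-7d, as were 6991 of all 24303 genes, with a median log2 fold change of -1.70. All were also lower in Effector than in Acute-7d, with -1.68, and higher in Acute-7d than in Acute-2d, with 1.30. In T_Dysf against Acute-7d Ncr1 was called lower, at -4.18 with an adjusted p of 0.0343. Klrb1c was highest in Acute-7d, at 1005 and 1384, against 243 and 544 in T_Dysf, 429.7 and 393 in Acute-2d and 551 and 244 in Effector.

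The replication genes were high in Effector, low in the Acute conditions and in between in T_Dysf. For 34 of the 43, both T_Dysf libraries lay above all 4 Acute libraries and below both Effector libraries, an order that 8.33% of the 12028 genes with a mean of at least 50 normalized counts also showed. Both Effector libraries lay above all 6 libraries of day 19 for 41 of the 43, against 23.1% of those 12028 genes. The exceptions to the order were few. Rpa1 was highest in T_Dysf, Rfc2 in T_Dysf lay above the Acute libraries and within the Effector range, Pold2 was lowest in T_Dysf, and Cdt1, Gins3, Pola2, Pold1, Pold3 and Rfc1 in T_Dysf overlapped the Acute range.

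**Figure D1:**
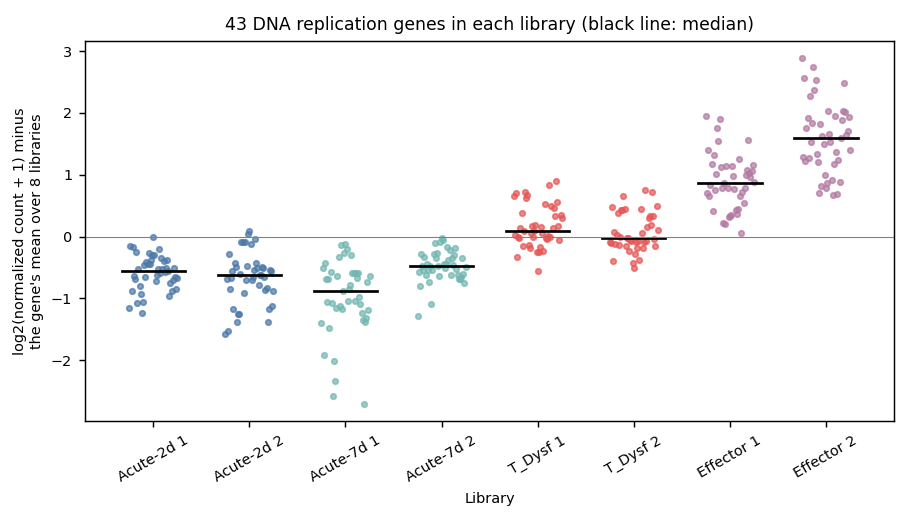
Level of each of the 43 replication genes in each library, as log2(normalized count + 1) minus the mean of that gene over the 8 libraries, with 1 point per gene and a black line at the median. Effector 2 holds the highest value of 42 genes and Acute-7d 1 the lowest of 31.

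The libraries of a condition differed too, most of all in Effector and Acute-7d. All 43 genes were higher in Effector 2 than in Effector 1, with a median ratio of 1.63 and a range from 1.15 for Gins2 to 2.25 for Cdc6, while 56.2% of the genes with a mean of at least 50 were higher in Effector 2. In Acute-7d, 41 of the 43 were higher in replicate 2, with a median ratio of 1.29 and a range from 0.914 for Pola2 to 4.05 for Rrm2, against 52.5% of the genes with a mean of at least 50. Replicates lay closer in the other conditions. The median ratio of replicate 2 to replicate 1 was 0.940 in Acute-2d and 0.920 in T_Dysf, with 15 and 10 of the 43 genes higher in replicate 2. As a share of all normalized counts, the 43 genes made up 0.142% in Acute-7d 1 and 0.185% in Acute-7d 2, 0.169% and 0.165% in Acute-2d, 0.278% and 0.261% in T_Dysf, and 0.449% and 0.713% in Effector. The 8 shares do not overlap between Acute, T_Dysf and Effector.

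Taken library by library, both T_Dysf values exceeded the Acute-7d 1 value for 38 genes and the Acute-7d 2 value for 38, beside 47.2% and 44.1% of the genes with a mean of at least 50. The median log2 difference between the T_Dysf mean and the single library was 0.94 for Acute-7d 1 and 0.50 for Acute-7d 2. Against the Effector libraries, both T_Dysf values were lower for 41 genes in the case of Effector 1, with a median log2 difference of -0.79, and for 42 genes in the case of Effector 2, with a median of -1.53. The shares of genes with a mean of at least 50 were 45.1% and 48.5%. The size of the difference therefore depended on the library, and its direction over the list did not.

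T_Dysf against Acute-7d compares continued with ended stimulation, and T_Dysf also got TGF-β1 from day 7, so the 2 treatments cannot be told apart. Here 37 of the 43 replication genes did not overlap between the conditions and were higher in T_Dysf. That compares with 26.0% of all genes and 38.7% of those with a mean of at least 50. Pold2 and Pold3 did not overlap and were lower, as were 6991 of all 24303 genes. The median log2 fold change of the 43 was 0.77, beside 0.00 over all genes, and it was 0.50 with Acute-7d 1 left out. By the test, only Rpa1 and Gins1 were called higher in T_Dysf, 2 of 43 against 2.54% of all genes, and none was called lower, against 3.03%. A fold change of at least 2 was reached by 14 genes, so 12 of these missed the adjusted p. The call count depended on which genes were tested. Among the 13175 genes with a maximum of at least 50 normalized counts, all 14 of these were called, against 6.31% of the genes tested. The methods of the study describe a filter at 50 that was set before normalization, so the filter used here is close to it but not the same. Over all genes, both calls depended on single libraries, when the lone library is assumed to vary like the other conditions. The median was 0.67 without T_Dysf 1, 0.83 without T_Dysf 2 and 0.94 without Acute-7d 2. Acute-7d 2 is the Acute-7d library without the RESUB prefix, and with a term for that prefix no replication gene was called, beside 541 of all 24303 genes.

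T_Dysf against Acute-2d shares the T_Dysf libraries with that comparison. Its median log2 fold change over the 43 was 0.61. Here 36 genes did not overlap and were higher in T_Dysf, against 25.7% of all genes and 37.9% of those with a mean of at least 50, and Cdt1, Pold2 and Rfc1 did not overlap and were lower, as were 6969 of all 24303 genes. Rpa1 and Chaf1a were called higher, against 3.14% of all genes, and no gene was called lower, against 4.21%. With the filter on a maximum of at least 50, 11 were called higher, against 6.72%. Libraries were left out only in the fit over all genes. There the calls of Rpa1 and Chaf1a depended on each of the 4 libraries, and the median ranged from 0.55 to 0.67. All 4 libraries of this comparison lack the RESUB prefix. With a term for the prefix the count was 1, namely Gins1, beside 1378 of all 24303 genes, while Rpa1 and Chaf1a were no longer called.

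Against Effector, 42 of the 43 genes had negative log2 fold changes in T_Dysf, with a median of -1.16, and 41 were lower without overlap, against 29.7% of all genes and 39.0% of those with a mean of at least 50. The test called 12 lower, against 4.75% of all genes, and none higher, against 4.47%. With the filter it called 27, against 10.4%. The calls turned on single libraries, and so did the size of the difference. The median was -1.53 without Effector 1 and -0.79 without Effector 2. It was -1.22 without T_Dysf 1 and -1.13 without T_Dysf 2.

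Effector against the Acute conditions gave the most calls. Each of the 43 genes was higher in both Effector libraries than in any Acute library. That compares with 25.6% of all genes and 37.2% of those with a mean of at least 50 against Acute-2d, and with 25.8% and 37.8% against Acute-7d. The median log2 fold change was 1.82 against Acute-2d and 2.00 against Acute-7d, and both comparisons share the Effector libraries. Against Acute-2d, 33 were called higher, beside 4.31% of all genes, and none lower, beside 4.48%. Against Acute-7d, 34 were called higher, beside 4.18%, and none lower, beside 3.88%. With the filter the counts were 36 in each, beside 8.99% and 8.60% of the genes tested. The calls depended on which library was left out. Against Acute-2d the median was 2.18 without Effector 1, 1.53 without Effector 2, 1.84 without Acute-2d 1 and 1.78 without Acute-2d 2. Against Acute-7d it was 2.34 without Effector 1, 1.59 without Effector 2 and 1.71 without Acute-7d 1. Within the RESUB libraries, Effector against Acute-7d 1 alone, the median was 2.12. With a term for the prefix, which only the Acute-7d pair can set, 1 gene was called against Acute-2d, 12 against Acute-7d and 0 between T_Dysf and Effector. Of all genes, 350, 808 and 386 were called in that order.

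Between the rested conditions, the median log2 fold change of the 43 for Acute-7d against Acute-2d was -0.08. Its sign depended on the Acute-7d library, with 0.14 without Acute-7d 1 and -0.28 without Acute-7d 2. No replication gene was called by limma in either direction, against 0.0782% of all genes called higher and 0.0905% called lower. At an unadjusted p under 0.05 the count was also 0, against 7.31% of all genes. Chaf1b was higher in Acute-7d without overlap, and Cdt1, Pold2 and Prim2 were lower without overlap, beside 3834 higher and 3969 lower of all 24303 genes. Which genes these were depended on the scaling. After rescaling to equal totals only Prim2 was lower without overlap. After rescaling to equal 75th percentiles Chaf1b overlapped, and Dut, Pold2, Prim2 and Rfc1 were lower without overlap. Acute-7d 1 lay below Acute-7d 2 for most of the list, which widens the error of every such comparison.

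**Figure D2:**
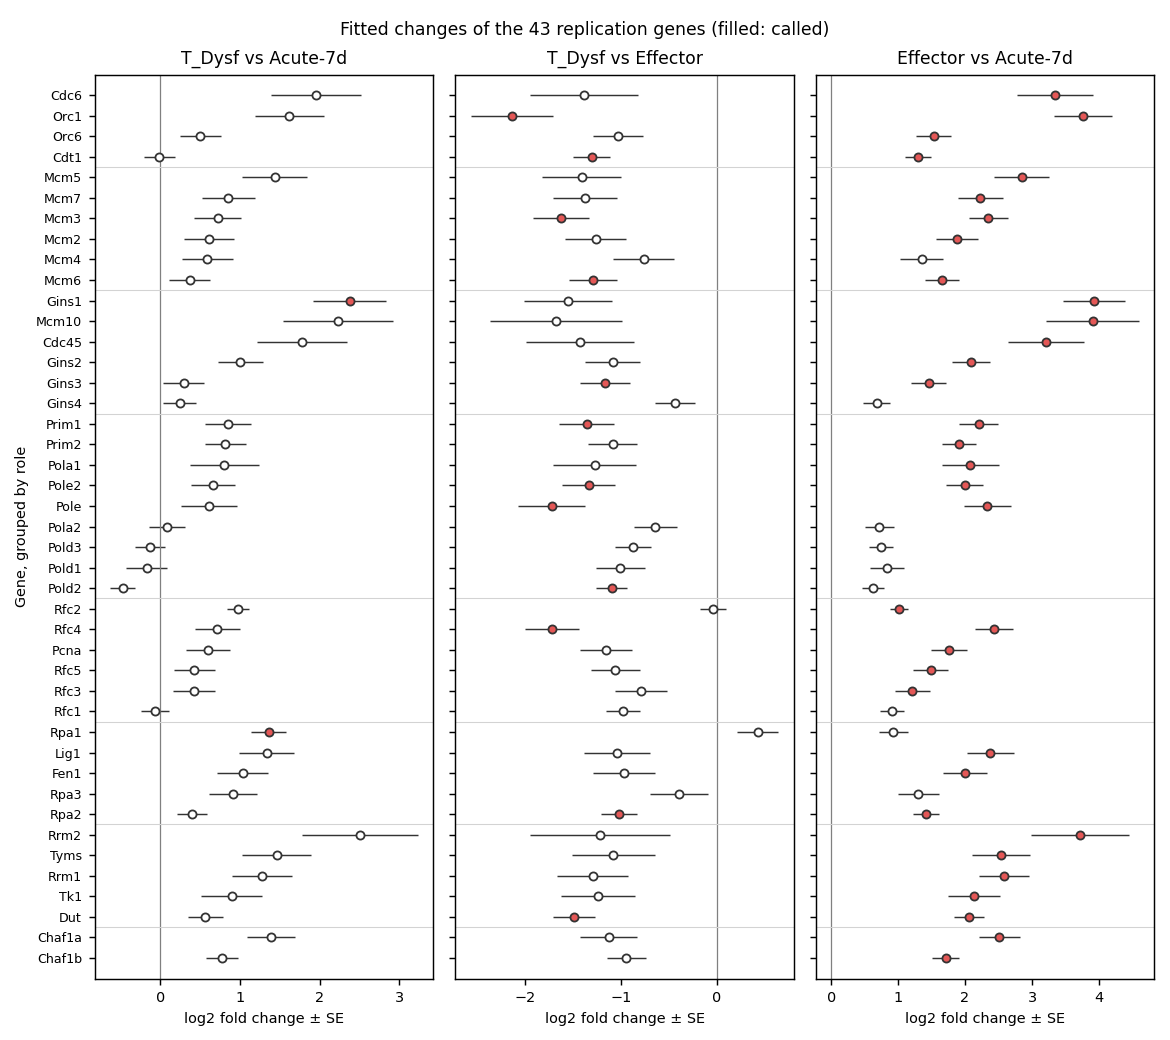
Fitted log2 fold change and standard error of each replication gene in 3 comparisons, with genes grouped by role and filled points for those called by limma over all 24303 genes. In T_Dysf against Acute-7d only Gins1 and Rpa1 are filled, and in T_Dysf against Effector 12 genes are filled, all on the negative side.

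Origin recognition and licensing is represented by Orc1, the largest ATPase subunit of the origin recognition complex, Orc6, its smallest subunit, and Cdc6 and Cdt1, which load the helicase. Cdc6 had 169.6 and 107 normalized counts in Acute-2d, 81.4 and 178 in Acute-7d, 508 and 435 in T_Dysf and 819.6 and 1843 in Effector. Both T_Dysf values were above every Acute value and below both Effector values. Its log2 fold change in T_Dysf was 1.96 ± 0.56 (SE, n = 2 libraries in each condition) against Acute-7d, with an adjusted p of 0.110, so the call was missed. Cdt1 behaved otherwise. It had 1064 and 983 normalized counts in Acute-2d, 885 and 979 in Acute-7d, 942 and 905 in T_Dysf and 1881 and 2774 in Effector, so T_Dysf overlapped Acute-7d and lay just under Acute-2d. Cdt1 was called lower in T_Dysf than in Effector, at -1.31 ± 0.19 with an adjusted p of 0.0173. Orc1 had the largest fitted difference of all members between T_Dysf and Effector, -2.14 ± 0.43 with an adjusted p of 0.0367. Orc1 and Orc6 each shared exon bases with another gene in the table, with 10.8% of the Orc1 exon bases opposite Gm12743, which did not exceed 23.4 normalized counts. Orc1 itself was at 26.3 and 19.4 in Acute-2d and 22.3 and 24.2 in Acute-7d. Its Acute values are therefore uncertain if counting ignored strand.

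The subunits of the helicase, Mcm2, Mcm3, Mcm4, Mcm5, Mcm6 and Mcm7, form the ring that unwinds DNA at the fork. All 6 lay in T_Dysf above every Acute library and below both Effector libraries. Mcm6, with the highest counts of the group, had 2671 and 2844 normalized counts in Acute-2d, 2571 and 2818 in Acute-7d, 3443 and 3506 in T_Dysf and 6504 and 11088 in Effector. Mcm5 had 948 and 891 in Acute-2d, 722 and 1298 in Acute-7d, 2619.7 and 2627 in T_Dysf and 5005 and 9708 in Effector. The Mcm5 values of T_Dysf agreed closely with each other, whereas Effector 2 was far above Effector 1. In T_Dysf against Acute-7d, Mcm5 had the largest log2 fold change of the ring, 1.44 ± 0.41, and Mcm6 the smallest, 0.37 ± 0.25, neither called. The ratio of Mcm5 to Mcm6 counts was 0.281 in Acute-7d 1, 0.460 in Acute-7d 2, 0.355 and 0.313 in Acute-2d, 0.761 and 0.749 in T_Dysf, and 0.770 and 0.876 in Effector. The subunits thus did not differ between conditions by an equal factor, and the T_Dysf ratios lay just under those of Effector. Mcm3 and Mcm6 were called lower in T_Dysf than in Effector, beside 4.75% of all genes. All but Mcm4 were called higher in Effector than in either Acute condition, beside 4.31% of all genes against Acute-2d and 4.18% against Acute-7d.

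Because these genes share a pattern over the libraries, their promoters were searched for letters associated with cell cycle genes. The E2F letters were TTTGGCGC, TTTCCCGC, TTTCGCGC and TTTGCCGC, the second motif was CCAAT, and the third was TTTGAA, known as CHR, each on both strands within the 250 bases before a RefSeq start. Some genes have several promoters, and a gene was counted if any of them matched. E2F letters occurred in 1.86% of all 32851 promoters, in 2.16% of the 27025 genes with a promoter, and in 8 of the 36 replication genes with an entry (Cdc6, Gins3, Mcm5, Mcm6, Mcm7, Orc1, Pola1 and Rfc3). CCAAT occurred in 33.8% of promoters, 37.5% of genes and 22 of the 36, and TTTGAA in 16.0% of promoters, 18.3% of genes and 5 of the 36. The genes without an entry are Mcm4, Gins1, Gins2, Gins4, Pole, Prim2 and Rfc2. The 250 bases upstream of 4 helicase genes are given as examples, those whose window holds a match and no annotated exon, a restriction set after the windows were seen. They are taken from RefSeq on GRCm38.p6, 5′ to 3′ on the strand of the gene, with matches in capitals. The locations are chr6:88898781-88899030 for Mcm2, chr1:20820313-20820562 for Mcm3 and chr1:128359706-128359955 for Mcm6, all on the minus strand, and chr8:75109259-75109508 on the plus strand for Mcm5.
Mcm2: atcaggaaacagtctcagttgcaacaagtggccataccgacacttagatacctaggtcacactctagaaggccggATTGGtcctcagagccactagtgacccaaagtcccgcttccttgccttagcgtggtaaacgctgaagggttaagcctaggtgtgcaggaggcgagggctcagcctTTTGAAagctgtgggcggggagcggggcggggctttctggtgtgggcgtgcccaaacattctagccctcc
Mcm3: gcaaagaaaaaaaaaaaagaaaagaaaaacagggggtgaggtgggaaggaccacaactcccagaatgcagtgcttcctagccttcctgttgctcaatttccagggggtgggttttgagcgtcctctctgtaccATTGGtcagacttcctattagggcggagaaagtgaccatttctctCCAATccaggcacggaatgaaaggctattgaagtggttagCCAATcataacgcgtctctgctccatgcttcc
Mcm5: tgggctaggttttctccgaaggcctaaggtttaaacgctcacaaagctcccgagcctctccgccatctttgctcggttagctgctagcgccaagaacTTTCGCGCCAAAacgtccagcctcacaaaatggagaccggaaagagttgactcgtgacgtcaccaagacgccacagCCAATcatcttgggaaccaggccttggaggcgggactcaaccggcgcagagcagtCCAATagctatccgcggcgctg
Mcm6: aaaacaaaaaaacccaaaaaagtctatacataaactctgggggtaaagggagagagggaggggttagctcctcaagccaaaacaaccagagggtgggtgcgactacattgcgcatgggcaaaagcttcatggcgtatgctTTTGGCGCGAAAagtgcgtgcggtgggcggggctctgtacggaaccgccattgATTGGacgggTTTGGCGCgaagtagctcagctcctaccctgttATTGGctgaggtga
In Mcm5 and Mcm6 an E2F match on 1 strand overlaps an E2F match on the other, so that a single run of capitals holds both, and Mcm6 has a further E2F match nearer its start. Mcm2 and Mcm3 have no E2F letters in this window, which says only that these letters are absent from it. A match is a string of letters and no measured site.

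Helicase activation rests on Cdc45 and the GINS subunits Gins1, Gins2, Gins3 and Gins4, which bind the ring, and on Mcm10, needed to start unwinding. Gins1 lies at chr2:150905400-150931280 on the plus strand of GRCm38. It had 55.8 and 48.6 normalized counts in Acute-2d, 22.3 and 54.5 in Acute-7d, 187 and 185 in T_Dysf and 439.5 and 683 in Effector. The T_Dysf values were close together and the conditions did not overlap, except for the Acute conditions with each other. Gins1 was called higher in T_Dysf than in Acute-7d, at 2.38 ± 0.46 with an adjusted p of 0.0459, and missed the call against Acute-2d, at 1.82 with an adjusted p of 0.0749. Its Acute-7d 1 value was under those of the other Acute libraries, and the Acute-7d call was lost without Acute-7d 1, where Gins1 had an adjusted p of 0.0937, and without T_Dysf 1 or T_Dysf 2. Gins4, with the highest mean count of the group over the 8 libraries and its smallest change in T_Dysf against Acute-7d, had 514 and 643 in Acute-2d, 541 and 634 in Acute-7d, 716 and 673 in T_Dysf and 792 and 1111 in Effector. These values keep the same order in a narrow range. Mcm10 and Cdc45 had log2 fold changes of 2.23 ± 0.69 and 1.78 ± 0.57 in T_Dysf against Acute-7d, larger than most but with wide errors, and Mcm10 was at 41.3 and 149 in Acute-7d. Of Gins2 exon bases, 67.3% lie opposite exons of Gse1. Gse1 was at 1484 and 1575 normalized counts in T_Dysf and 2072 and 1676 in Acute-7d, and Gins2 at 507 and 763 in T_Dysf and 249.5 and 382 in Acute-7d, so the values of Gins2 are uncertain if counting ignored strand.

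Primase and the replicative polymerases included several genes with small differences between T_Dysf and Acute. Prim1 and Prim2 encode the catalytic and the large subunit of primase, Pola1 and Pola2 the catalytic and accessory subunits of polymerase alpha, Pold1, Pold2 and Pold3 those of polymerase delta, and Pole and Pole2 those of polymerase epsilon. Pold2 had 1439.7 and 1538 normalized counts in Acute-2d, 1334 and 1428 in Acute-7d, 976 and 1012 in T_Dysf and 1810.2 and 2499 in Effector. As deposited, it was the single replication gene with both T_Dysf libraries below all others. After rescaling to equal 75th percentiles, Cdt1, Pold1, Pold3 and Rfc1 were also lower in T_Dysf without overlap against either Acute condition. That rescaling lowers all genes of T_Dysf alike in these comparisons, with a median of all genes of -0.07 against Acute-7d and -0.10 against Acute-2d. The log2 fold change of Pold2 against Acute-7d, -0.47 ± 0.16, was not called, and against Effector it was called lower, at -1.10 ± 0.16 with an adjusted p of 0.0168. Pold1 had 1408 and 1777 in Acute-2d, 1441 and 1637 in Acute-7d, 1453 and 1284 in T_Dysf and 2169 and 3464 in Effector, where T_Dysf overlapped Acute-2d and Acute-7d. Prim1, with the largest change of the group in T_Dysf against Acute-7d, had 522 and 434 in Acute-2d, 314 and 509 in Acute-7d, 758 and 684 in T_Dysf and 1559 and 2188 in Effector, and missed the call against Acute-7d at 0.85 ± 0.29. The delta subunits Pold1, Pold2 and Pold3 had log2 fold changes of -0.17, -0.47 and -0.13 in T_Dysf against Acute-7d, and the epsilon genes Pole and Pole2 0.61 and 0.66. The smaller subunits, which are not among the 43, do not follow that split, with 0.78 for Pold4 of delta, 0.08 for Pole3 and 0.33 for Pole4 of epsilon. The count ratio of Pold1 to Pole was 3.46 in Acute-7d 1, 2.59 in Acute-7d 2, 2.70 and 3.35 in Acute-2d, 1.91 and 1.59 in T_Dysf, and 1.14 and 0.979 in Effector, so it followed the same order of conditions in reverse. The ratio of Pold2 to Pole2 did not, with 5.64 and 7.44 in T_Dysf and 5.90 and 5.06 in Effector, where these conditions overlap, against 13.1 to 15.7 in the Acute libraries. Pola2 was the one gene of the group whose sign in T_Dysf against Acute-7d changed with the scaling, from 0.08 as deposited to below 0 after rescaling to equal 75th percentiles. Since that rescaling lowers all genes of T_Dysf alike, the change of sign does not set Pola2 apart. None of the 9 reached a 2-fold change in T_Dysf against either Acute condition, whereas Pole, Pole2, Prim1 and Pold2 were called lower than in Effector, beside 4.75% of all genes.

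**Figure D3:**
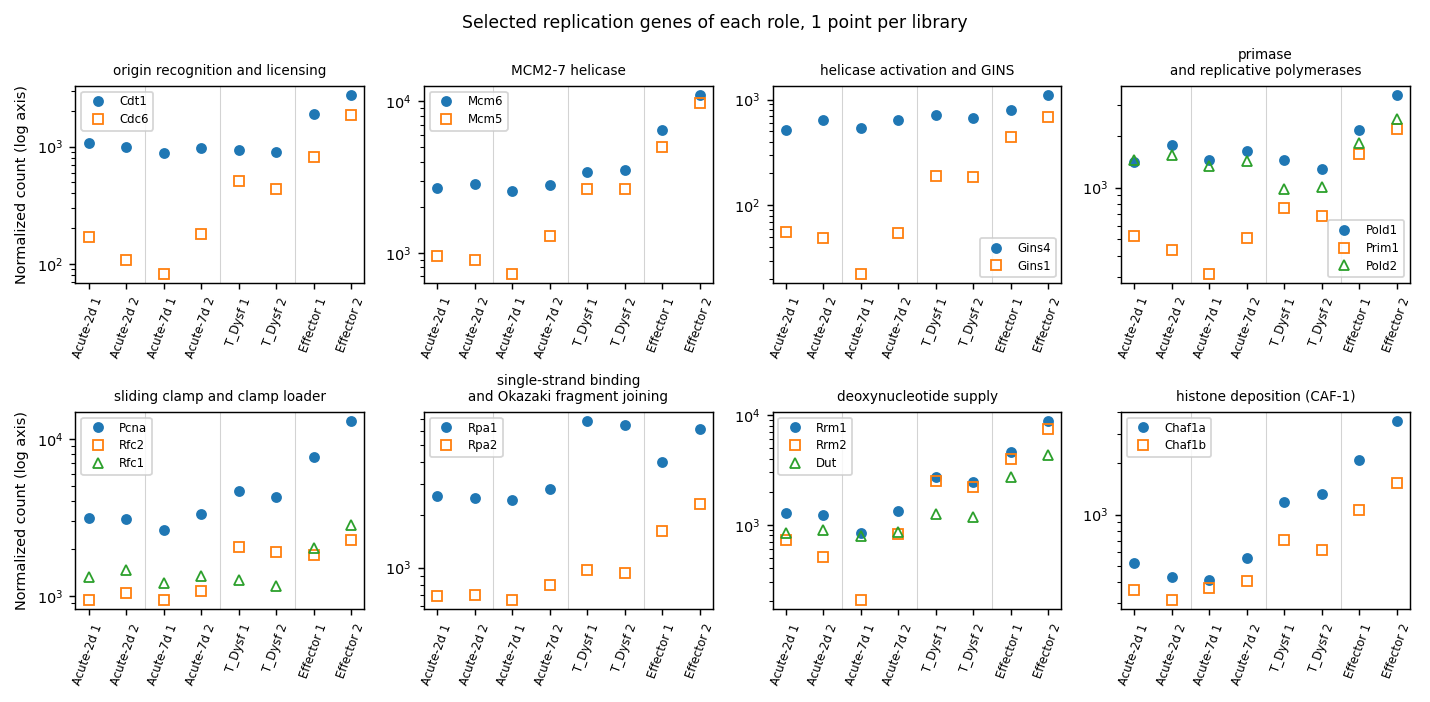
Normalized counts on a log axis in each library for the genes of each role with the highest mean and with the largest and smallest log2 fold change in T_Dysf against Acute-7d. Gins1, Rrm2 and Cdc6 are lowest in Acute-7d 1, Rpa1 is highest in T_Dysf, and Pold2 is lowest in T_Dysf.

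The sliding clamp is encoded by Pcna, which tethers polymerases to DNA, and the clamp loader by Rfc1, its large subunit, and the small subunits Rfc2, Rfc3, Rfc4 and Rfc5. Pcna had 3132 and 3105 normalized counts in Acute-2d, 2628 and 3328 in Acute-7d, 4693 and 4282 in T_Dysf and 7685 and 12989 in Effector, in the common order. The table also has a row for the pseudogene Pcna-ps2, at 1867 and 3322 in Effector and 537 and 1009 in T_Dysf, so reads of Pcna may have been split between the rows. Rfc1 had 1315 and 1462 in Acute-2d, 1218 and 1337 in Acute-7d, 1275 and 1163 in T_Dysf and 2023 and 2836 in Effector, with T_Dysf within the Acute-7d range or under it. Rfc2 differed from the other loader subunits. It had 939 and 1047 in Acute-2d, 938 and 1084 in Acute-7d, 2046 and 1920.4 in T_Dysf and 1823 and 2266 in Effector, and T_Dysf was level with Effector. Its log2 fold change was 0.97 ± 0.14 against Acute-7d with an adjusted p of 0.0218, just under the 2-fold limit, and -0.04 ± 0.14 against Effector. Some 15.1% of the Rfc2 exon bases lie opposite exons of Lat2, a gene at 2473 and 2332 normalized counts in T_Dysf and 479.8 and 414 in Acute-7d. Whether counting used strand is not given in the sources used here, so the part of Lat2 reads in the Rfc2 values was not tested. The ratio of Rfc2 to Rfc4 was 8.08 and 8.34 in T_Dysf, 5.15 and 6.93 in Acute-2d, 7.44 and 6.36 in Acute-7d, and 2.92 and 2.23 in Effector. Rfc4 was called lower in T_Dysf than in Effector, at -1.72 ± 0.29 with an adjusted p of 0.0229. Of the Rfc4 exon bases 12.7% lie opposite exons of Eif4a2, which stood at 6172 and 6386 normalized counts in Effector and 7959 and 7508 in T_Dysf, far above Rfc4, at 624 and 1017 and at 253 and 230.4, so Rfc4 and its ratio are uncertain in the same way.

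Single-strand binding is the task of replication protein A, made of Rpa1, Rpa2 and Rpa3, and the pieces of the lagging strand are trimmed by Fen1 and sealed by Lig1. Rpa1, the large subunit, lies at chr11:75298166-75348324 on the minus strand of GRCm38. It had 2568 and 2487 normalized counts in Acute-2d, 2412 and 2798 in Acute-7d, 6842 and 6498 in T_Dysf and 3987 and 6152 in Effector. It was the only replication gene with both T_Dysf libraries above both Effector libraries. Rpa1 was called higher in T_Dysf than in Acute-7d, at 1.36 ± 0.22 with an adjusted p of 0.0288, and than in Acute-2d, at 1.40 ± 0.22 with an adjusted p of 0.0220. Neither call held when a library of the comparison was left out, with Rpa1 at an adjusted p of 0.140 without Acute-7d 1 and 0.0893 without Acute-7d 2 in the former. Against Effector the difference of 0.43 ± 0.22 was not called, with an adjusted p of 0.256. Rpa2 had 687 and 696 in Acute-2d, 649 and 796 in Acute-7d, 971 and 929.7 in T_Dysf and 1615 and 2292 in Effector, the common order. The count ratio of Rpa1 to Rpa2 was 7.05 and 6.99 in T_Dysf, from 3.52 to 3.74 in the 4 Acute libraries, and 2.47 and 2.68 in Effector, so the T_Dysf ratios stood apart from the rest. That of Rpa1 to Rpa3 was 17.8 and 21.5 in T_Dysf but 17.6 in Acute-7d 1, where Rpa3 was at 137. Rpa1 shares 0.789% of its exon bases with another annotated gene, a miRNA without a row in the table. Lig1 and Fen1 had log2 fold changes of 1.33 ± 0.35 and 1.03 ± 0.32 in T_Dysf against Acute-7d. For Fen1, 78.8% of the exon bases lie opposite Gm10143, which stayed between 54.1 and 96.5 normalized counts.

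Deoxynucleotide supply rests on ribonucleotide reductase, with its large subunit Rrm1 and small subunit Rrm2, on the thymidylate synthase Tyms and the thymidine kinase Tk1, and on the dUTPase Dut, which keeps uracil out of DNA. Rrm2 had 727 and 509.6 normalized counts in Acute-2d, 204 and 826 in Acute-7d, 2486 and 2198 in T_Dysf and 3934 and 7509 in Effector. It showed the widest gap between the Acute-7d replicates of any member. Its log2 fold change in T_Dysf against Acute-7d, 2.51 ± 0.73, was the largest of the 43 and was not called, with an adjusted p of 0.112. Rrm1 had 1276 and 1216 in Acute-2d, 849 and 1334 in Acute-7d, 2732 and 2444 in T_Dysf and 4568 and 8814 in Effector. Dut had 832 and 891 in Acute-2d, 783 and 854 in Acute-7d, 1252 and 1172 in T_Dysf and 2722 and 4279.6 in Effector. Both kept the common order with no overlap of T_Dysf with another condition. The count ratio of Rrm2 to Rrm1 was 0.241 in Acute-7d 1 and 0.619 in Acute-7d 2, 0.569 and 0.419 in Acute-2d, 0.910 and 0.900 in T_Dysf, and 0.861 and 0.852 in Effector, so in T_Dysf the reductase subunits stood to each other much as in Effector while both were lower in counts. Dut was called lower in T_Dysf than in Effector, at -1.49 ± 0.22 with an adjusted p of 0.0172. Tyms and Tk1 had log2 fold changes of 1.46 and 0.89 in T_Dysf against Acute-7d. All 5 genes were called higher in Effector than in Acute-7d, beside 4.18% of all genes. Against Acute-2d 4 were called higher, beside 4.31% of all genes, and Rrm2 missed the limma call with an adjusted p of 0.0503.

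Chromatin assembly factor 1 places histones on new DNA, and Chaf1a and Chaf1b encode its large and middle subunits. Chaf1a had 518 and 427 normalized counts in Acute-2d, 411 and 553 in Acute-7d, 1184 and 1315 in T_Dysf and 2090.4 and 3556 in Effector. Chaf1b had 361 and 312 in Acute-2d, 369 and 407 in Acute-7d, 710.0 and 617 in T_Dysf and 1062 and 1527 in Effector. In both, T_Dysf lay clear of the Acute and the Effector libraries. Chaf1a, at chr17:56040439-56072289 on the plus strand, was called higher in T_Dysf than in Acute-2d, at 1.40 ± 0.30 with an adjusted p of 0.0492, and missed the call against Acute-7d, at 1.39 ± 0.30 with an adjusted p of 0.0583. The Acute-2d call of Chaf1a was lost without any 1 of its 4 libraries, with an adjusted p of 0.136 without Acute-2d 1. Of its exon bases 52.5% lie opposite exons of Ubxn6, which stood at 1277 and 1515 normalized counts in T_Dysf and 1531 and 1586 in Acute-2d. The values of Chaf1a are therefore uncertain if counting ignored strand.

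Levels of different genes were compared per kilobase of exon, using the union of annotated exons. Pcna was highest, at a mean of 2179 normalized counts per kilobase over the 8 libraries, followed by Mcm6 at 949.5 and Mcm3 at 917. Orc1 was lowest, at 33.6, with Mcm10 at 60.1 and Pole2 at 65.2 next. The order differed between conditions. In the Acute conditions Pold2 came after Pcna, at 785 in Acute-2d and 728 in Acute-7d, ahead of Mcm6 at 591 and 577. In T_Dysf the mean level per kilobase was 1870 for Pcna and 1196 for Rpa1, whereas in Effector Mcm3, at 2142, and Rrm2, at 2065, stood above Rpa1, at 909. Among the ring subunits the level per kilobase in T_Dysf ran from 349.5 for Mcm2 to 773 for Mcm4. These levels depend on the exon model as well as on the reads.

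Other genes of the pathway were read from lists of 51 further genes in origin firing, fork progression, nucleotide metabolism and replication-coupled chromatin. In T_Dysf against Acute-7d, 2 of the 51 were called higher, Gmnn, the inhibitor of CDT1, and Tipin, a fork protection factor, and 2 were called lower, Dctd, which deaminates dCMP, and Samhd1, which breaks down deoxynucleotides. Each count is 3.92% of the list, beside 2.54% of all genes called higher and 3.03% called lower. Samhd1 had 31031 and 29392 normalized counts in Acute-2d, 26407 and 25731 in Acute-7d, 10560 and 9675 in T_Dysf and 13199 and 13177 in Effector. It was highest in the Acute conditions and lowest in T_Dysf. Against Acute-7d its log2 fold change was -1.37 ± 0.08, with an adjusted p of 0.00388. Dctd had 56.1 and 39.1 in T_Dysf and 286 and 293 in Effector, against 211 and 289 in Acute-7d and 215 and 244 in Acute-2d. Against Acute-2d, Top1 was called higher, beside 3.14% of all genes, and Dctd and Samhd1 lower, beside 4.21%. Against Effector, 11 were called lower, among them Dctd, Timeless and Ticrr, beside 4.75% of all genes, and none higher, beside 4.47%. In Effector, 27 were called higher than in Acute-2d and 30 than in Acute-7d, beside 4.31% and 4.18% of all genes, with Clspn, Pclaf and Uhrf1 among both. Samhd1 was called lower than in Acute-2d, beside 4.48%. The median log2 fold change of the 51 in T_Dysf was 0.45 against Acute-7d, 0.45 against Acute-2d and -0.94 against Effector.

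As a comparison list, 20 genes of mitosis such as Mki67, Cdk1 and Plk1 were read in the same way. Their median log2 fold change was 2.01 in T_Dysf against Acute-7d, 1.55 against Acute-2d and -1.31 against Effector, beside 0.77, 0.61 and -1.16 for the replication genes. All 20 were without overlap and higher in T_Dysf than in either Acute condition, beside 26.0% of all genes against Acute-7d and 25.7% against Acute-2d. None was called by limma in any of these 3 comparisons. An unadjusted p under 0.05 was found for 18 of the 20 in T_Dysf against Acute-7d, 7 against Acute-2d and 4 against Effector, beside 6344, 6735 and 7712 of all 24303 genes, so the list differs most from all genes in the first. Mki67, a marker of dividing cells, had 3050 and 1817 normalized counts in Acute-2d, 1096 and 3371 in Acute-7d, 6848 and 6734 in T_Dysf and 16144 and 28620 in Effector. Acute-7d 1 was the lowest library and Effector 2 the highest, as for most replication genes. In Effector, 12 of the 20 were called higher than in Acute-2d and 18 than in Acute-7d, beside 4.31% and 4.18% of all genes. The difference between the lists was not tested.

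**Figure D4:**
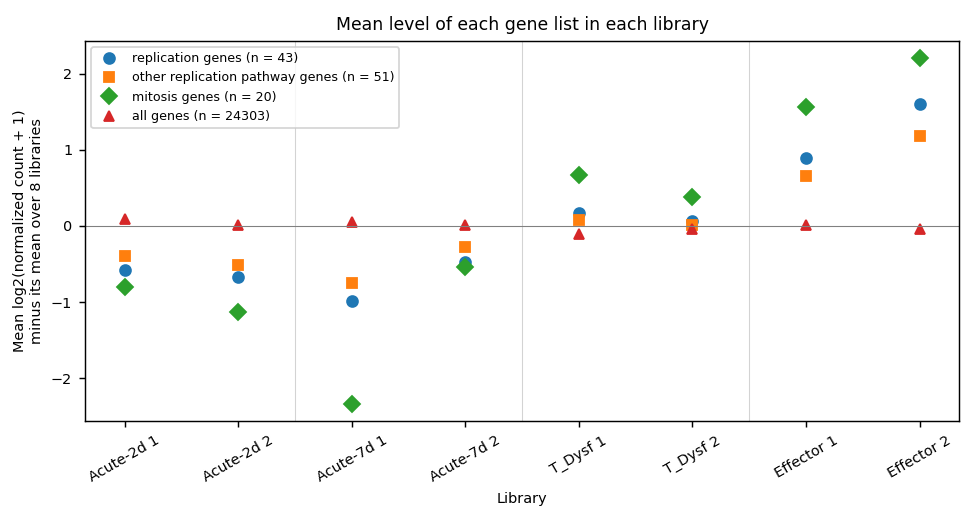
Mean log2(normalized count + 1) of each gene list in each library, minus the mean of that list over the 8 libraries, for the 43 replication genes, 51 other pathway genes, 20 mitosis genes and all 24303 genes. The mitosis genes span from -2.33 in Acute-7d 1 to 2.20 in Effector 2 and the replication genes from -0.99 to 1.60 in the same libraries, while all genes stay between -0.11 and 0.09.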

How the data were processed

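RNA was sequenced from 8 libraries of P14 CD8 T cells. The authors used STAR with mm10, then RefSeq transcripts in Partek Flow, and deposited a signal, estimated read counts divided by DESeq2 median-ratio size factors, called normalized counts here. Between 51.0% and 74.9% of values under 1000 reads were whole multiples of 1 read within 0.01 reads, so no count model was used. Here limma 3.58.1 in R 4.3.3 (lmFit, eBayes with trend) was fitted to log2(normalized count + 1) for 4 condition means with 4 residual degrees of freedom, two-sided. On simulated data this fit recovered few 3- to 4-fold changes when low genes were included and replicates varied more, and most 4-fold changes in a milder setting, added after recovery in the harder one fell short. P-values rest on the spread between replicates, pooled over the 4 conditions. Lists are described by counts and medians, without a test. Members, lists and comparisons were chosen with earlier results of these data known. Values in every library are given, in each role, for the genes with the highest mean and with the largest and smallest fold change of T_Dysf against Acute-7d, and others were named by call or by ratio after their values were seen. Exon models are GENCODE M21 on GRCm38 and promoters RefSeq on GRCm38.p6. Alternatives were pseudocounts, filters on low values, rescaling, fewer samples, a replicate block, a prefix term, call rules and leaving out each library.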

Additional observations from a re-analysis of the deposited data

How the results depend on the processing

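Counts of called replication genes moved far more than medians did. Filters that keep a gene if its mean, or its maximum, reaches 50 normalized counts were fitted to 12028 or 13175 genes. Both gave 11 calls in T_Dysf against Acute-2d, 14 against Acute-7d and 27 against Effector. Beside these, 1697, 1477 and 2218 of the 12028 genes and 1989, 1712 and 2532 of the 13175 were called. An unadjusted p under 0.05 with a 2-fold change gave the same member counts, beside 3517, 3184 and 4060 of all 24303 genes. The prior degrees of freedom of the fit were 0.888 with all genes and 3.36 or 3.41 with the filters. With only the 2 conditions compared, the counts were 0 for Effector against Acute-2d, 0 against Acute-7d, 7 for T_Dysf against Acute-2d, 1 against Acute-7d and 0 against Effector. Of all genes, 235, 155, 1300, 912 and 465 were called in that order. With a term for RESUB libraries the replication counts were 1, 12, 1, 0 and 0 in that order, beside 350, 808, 1378, 541 and 386 of all genes. The medians of Effector against Acute-2d and of T_Dysf against Effector were then 2.26 and -1.53. A pseudocount of 0.1 gave 1 call in T_Dysf against Acute-2d, beside 1736 of all genes. An adjusted p without a fold limit gave 4, beside 2882. With the replicate number as a block, T_Dysf had 1 call against Acute-2d, 0 against Acute-7d and 10 against Effector. Beside these stood 1344, 891 and 1757 of all genes. Effector then had 26 calls against Acute-2d and 28 against Acute-7d, beside 1545 and 1431. Correlations of replicate differences ran from -0.199 to 0.197 over 6 pairs of conditions, 2 over 0.1. Low correlations cannot show whether replicates of the same number share a donor, and this was not tested. Leaving out 1 library at a time, counts ranged from 0 to 35 for Effector against Acute-2d, 1 to 37 against Acute-7d, always 0 for T_Dysf against Acute-2d, 0 to 1 against Acute-7d and 0 to 26 against Effector, and medians from 1.53 to 2.18, 1.59 to 2.34, 0.55 to 0.67, 0.50 to 0.94 and -1.53 to -0.79. For Acute-7d against Acute-2d the count stayed 0 and the median ranged from -0.28 to 0.14, and it was 0.14 with the RESUB term. Rescaling to equal 75th percentiles moved the median of all genes by -0.11 in Effector against Acute-2d, where the replication genes went from 1.82 to 1.67, and turned the sign of 1 gene, Pola2, in T_Dysf against both Acute conditions. Under it, Cdt1, Pold1, Pold2, Pold3 and Rfc1 were lower in T_Dysf than in either Acute condition without overlap. The median of all genes was then -0.07 in T_Dysf against Acute-7d and -0.10 against Acute-2d, so neither these genes nor Pola2 are set apart by the rescaling. A lone library is assumed to vary like the other groups. The cause of these moves was not tested. All 43 genes lay above 3 reads in every library, so depth excluded none of them.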
